A study of Mus musculus with 14 samples.

Results

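The AP-1 transcription factor genes were examined here, namely Fos, Fosb, Fosl1, Fosl2, Jun, Junb, Jund and Atf3. They were chosen by name, and they are 8 of 21911 protein-coding genes of the GENCODE annotation. For each gene, every H3K4me3 peak was collected that had a base in the gene body or within 1 kb of one of its transcription start sites (TSSs), together with every putative enhancer within 100 kb of the gene body. H3K4me3, the trimethylated lysine 4 of histone H3, is found mainly at promoters.

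The study mapped H3K4me3 by ChIP-seq in iMEF cells, which are immortalised mouse embryo fibroblasts, to follow the mark after loss of ASH2L. ASH2L is a core subunit of the COMPASS/KMT2 complexes that methylate H3K4. The 14 libraries comprised 12 H3K4me3 libraries in 6 groups of 2 replicates, that is, untreated cells and cells treated with dTAG for 30 min, 2 h, 4 h, 8 h or 16 h, and 2 inputs, which were taken without treatment and at 16 h. All groups shared the same background. The endogenous floxed Ash2l alleles had lost exon 4 through Cre-ER, and the cells depended on a lentiviral FKBP12F36V-tagged human ASH2L, which dTAG marks for degradation. Per the study's figure legend, the ChIP-seq of histone marks was done on NG3 cells, which are 1 clone, so the replicates do not sample different clones.

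The data analysed here were 2 lists of positions in mm10 (GRCm38.p6). The first was the union of the H3K4me3 peaks over all libraries, and the second was the enhancers of control cells, defined by H3K4me1, H3K27ac and accessible chromatin. Neither list held a signal, a score or a value per library. The study's methods set a minimum number of raw reads for each ChIP library, but the depth each one reached is not shown by these lists, no value below has a replicate error, and untreated and treated cells were not compared. A peak in the list was present in at least part of the libraries, and which ones was not analysed here. The label of the cells was checked against marker genes. All 9 of 9 fibroblast markers had a peak within 1 kb of a TSS, against 59.1% of all protein-coding genes. The widest such peak ranged from 382 bp at Col3a1 to 3018 bp at Prrx1. Of 10 markers of other cell types, 2 had a peak at a TSS, the epithelial genes Epcam (724 bp) and Cdh1 (602 bp). Both of these peaks were wider than that of Col3a1.

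AP-1 is a dimer of basic leucine zipper (bZIP) proteins, in which Fos family members pair with Jun family members. It binds the TPA response element TGACTCA, which reads TGAGTCA on the other strand. Here this element was searched in the wider form TGANTCA, which also allows A or T at the centre. Dimers with ATF partners also bind the cAMP response element TGACGTCA. In fibroblasts most of these genes are immediate early genes, which growth factors or stress induce within minutes without new protein synthesis.

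An H3K4me3 peak was listed at the TSS of 7 of the 8 AP-1 genes, at widths that ranged from common to among the widest of the genome. None was listed for Jund. A peak within 1 kb of a TSS (below, a TSS peak) was present for 59.1% of all protein-coding genes. The median width of the widest TSS peak was 2525 bp over the 7 genes and 1255 bp over the 12947 coding genes with such a peak. When the centre of the peak had to lie within 1 kb of a TSS, the medians were 1596 bp and 1233 bp. In 4 of the 7 genes it reached 2000 bp, against 16.0% of coding genes with a TSS peak. Summing all TSS peaks of a gene gave a median of 3233 bp for the AP-1 genes and 1510 bp for coding genes. In total, 18 peaks lay at the AP-1 genes, of which 14 were TSS peaks and 4 lay only in the gene body. None of the 18 had the TSS of another protein-coding gene within 1 kb.

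Among the Fos family, Fos showed the most even distribution around the TSS. Fos encodes the classical partner of Jun and is transcribed within minutes of serum addition. It lies at chr12:85473890-85477273 on the plus strand and carried 1 peak of 3233 bp, from 1931 bp upstream to 1301 bp downstream of the TSS. This width was at or above that of 97.8% of coding genes with a TSS peak. Fos was the exception in direction, since in the other 6 of 7 genes the peaks reached farther into the gene than upstream, as they did in 77.1% of coding genes with a TSS peak. Of its peak, 24.3% was exonic, 15.9% intronic and 59.7% outside annotated genes. The TSS itself was covered, and so was the whole CpG island of 1314 bp.

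The Fos promoter is shown because it lies entirely under H3K4me3, unlike the stretches before the GENCODE TSSs further below. It is chr12:85473640-85473890 on the plus strand in GRCm38.p6, from RefSeq, and ends with the base of the TSS. Capitals mark a GC box (GGGCGG, here read on the opposite strand) that starts at -74 and a TATA box (TATAAA) that starts at -33 relative to the TSS, and these do not overlap.
Fos promoter: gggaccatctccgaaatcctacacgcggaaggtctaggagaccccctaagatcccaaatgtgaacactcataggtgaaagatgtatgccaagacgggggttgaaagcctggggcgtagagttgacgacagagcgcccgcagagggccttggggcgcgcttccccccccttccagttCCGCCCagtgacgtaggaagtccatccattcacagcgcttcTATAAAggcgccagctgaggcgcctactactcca
The motifs searched, always on both strands, included TGANTCA, the wider form of the TPA response element, and the cAMP response element TGACGTCA with its variant TGACATCA. The others were the TATA box TATAAA, the GC box GGGCGG, the CCAAT box, the EGR element GCGTGGGCG and the CArG box, to which SRF binds. GGGCGG occurs in 35.7% and TATAAA in 13.6% of 32851 RefSeq promoters of mouse genes, each taken from 250 bases before to 50 bases after the start. The CArG box had no match in this window of Fos and occurs in 1.63% of these promoters.

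Fosb encodes FosB and, by alternative splicing, a shorter form that lacks part of the transactivation domain. It lies at chr7:19302696-19310051 on the minus strand. Its H3K4me3 was divided into 3 TSS peaks of 297, 1596 and 964 bp, separated by 93 and 108 bp, which reached from 680 bp upstream to 2377 bp downstream. The TSS lay inside the peak of 1596 bp. That peak alone was at the 70.1 percentile of coding genes, and the 3 together (2857 bp) were at the 91.6 percentile, so the rank of Fosb depended on whether adjacent peaks were counted together. The peak of 964 bp lay entirely in exons, and 2 enhancers of the list overlapped the latter 2 peaks.

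Fosl1 encodes Fra-1 and Fosl2 encodes Fra-2, which lack the strong transactivation domain of c-Fos. The pair differed in H3K4me3. Fosl1, at chr19:5447547-5455946 on the plus strand, carried 1 TSS peak of 1928 bp (82.2 percentile), which began 190 bp upstream of the TSS and ended 1737 bp downstream. Its upstream extension was the shortest of the 7 genes, at the 24.6 percentile. Within the gene body lay 2 further narrow peaks, 205 bp wide in an intron, and 318 bp wide in the exonic sequence near the 3′ end.

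Fosl2, at chr5:32135801-32157842 on the plus strand, had the widest peak of the AP-1 genes. It measured 4030 bp, at the 99.4 percentile, began 82 bp after the TSS and ended 4111 bp downstream. A second TSS peak of 732 bp lay upstream, from 871 to 140 bp before the TSS. Together they covered 4762 bp, and 93.3% of the wide peak was annotated as exonic.

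The Jun family showed the highest coverage of the gene body and also the gene without a peak. Jun encodes the classical AP-1 partner c-Jun and has no introns. It lies at chr4:95049034-95052222 on the minus strand and carried a TSS peak of 810 bp upstream, a TSS peak of 2525 bp downstream (93.4 percentile) and a gene body peak of 348 bp. The peaks covered 90.1% of the 3189 bp of the gene. Both TSS peaks also contained TSSs of Junos, a non-coding gene that lies across the Jun promoter. The H3K4me3 of neither TSS peak can therefore be assigned to Jun alone, and this includes the downstream peak and its share of the gene body coverage.

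Junb encodes JunB, a weaker activator than c-Jun that can antagonise it. At chr8:84974484-84978718 on the minus strand, it carried 3 TSS peaks. The peaks of 435 and 283 bp lay upstream, and that of 2977 bp (96.9 percentile) began 31 bp after the TSS and ended 3007 bp downstream. They covered 70.3% of the gene body.

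Jund encodes JunD, which is broadly and rather constantly expressed in many cell types. It lies at chr8:70698949-70700616 on the plus strand and had 0 peaks within 1 kb of its TSS and 0% of its gene body under peaks. The nearest peaks of the list lay 24.9 kb upstream and 157.8 kb downstream. Jund nevertheless has a CpG island of 1651 bp over its TSS, and the kilobase around the TSS had a GC content of 68.3% and held 0.883 times the CpGs that its base composition predicts, the highest values of the 8 genes. Of coding genes with a CpG island, 89.6% had a TSS peak.

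The peak-free stretch around Jund was not limited to this gene. It spanned chr8:70674006-70856754, or 182.7 kb, and held the principal TSSs of 10 protein-coding genes and 0 enhancers. Of the 10 genes, 7 had a CpG island at a TSS, namely Arrdc2, Jund, Mast3, Mpv17l2, Pde4c, Pik3r2 and Rab3a. Of 12286 peak-free stretches that held a coding TSS, 8 held at least 7 such genes, this one included. The lists hold positions only, and what underlies the stretch was not tested. Without signal values, a missing peak does not show that H3K4me3 was absent.

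Atf3 encodes a stress-induced bZIP protein that pairs with Jun proteins and can repress their targets. The gene spans chr1:191170296-191218039 on the minus strand and has alternative promoters. H3K4me3 lay at the inner promoter, with TSS peaks of 544 bp upstream and 1354 bp downstream of the TSS at position 191183340. The wider of these was close to the coding gene median, at the 56.7 percentile, and was the narrowest of the 7 genes. The outermost TSS, 34.7 kb upstream, had no peak within 1 kb, and the nearest peak in the gene (477 bp, intronic) lay 1299 bp from it.

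**Figure D1:**
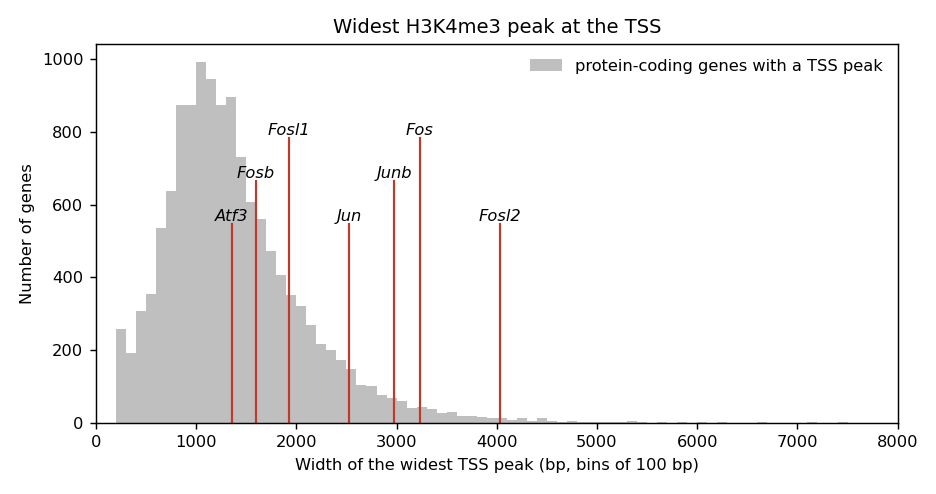
Width of the widest TSS peak in bp, in bins of 100 bp (horizontal), against the number of protein-coding genes with a TSS peak (vertical, grey bars). Red lines mark the AP-1 genes, from Atf3 at 1354 bp to Fosl2 at 4030 bp; Jund has no TSS peak and is not shown.

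The position of the TSS relative to the peaks divided the genes into 2 kinds. In Fos, Fosb and Fosl1 the TSS of the principal transcript lay inside a peak. In Fosl2, Jun, Junb and Atf3 it lay in a gap between an upstream and a downstream peak, of 221, 299, 163 and 272 bp. This was so for 4 of the 7 genes, compared with 7.99% of coding genes with a TSS peak, when gaps of up to 500 bp were counted. For Fosl2 the gap holds for the GENCODE TSS only, since the RefSeq start lies 671 bp downstream, inside the peak of 4030 bp, and the RefSeq promoter window was 100% under peaks. In 77.6% of coding genes with a TSS peak the TSS lay inside a peak. At least 2 TSS peaks were present in 5 of the 7 AP-1 genes and in 40.3% of coding genes with a TSS peak. With peaks merged where they lay within 1 kb of each other, this was so for 0 of the 7 genes and for 6.55% of coding genes.

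The sequences of these gaps are shown because they are the promoter stretches without a called peak between flanking H3K4me3. Each runs in the direction of transcription from the end of the upstream peak to the base of the TSS. Capitals mark the GC box, the CCAAT box, the TATA box and TGACATCA, on either strand. No marked matches overlap each other, except 2 overlapping GC boxes of Atf3. The regions, in GRCm38.p6, are chr5:32135662-32135801 on the plus strand, chr4:95052222-95052499, chr8:84978718-84978850 and chr1:191183340-191183552 on the minus strand.
Fosl2 gap: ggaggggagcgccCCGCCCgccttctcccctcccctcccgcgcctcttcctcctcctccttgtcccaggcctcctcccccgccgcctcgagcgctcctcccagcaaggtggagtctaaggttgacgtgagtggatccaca
Jun gap: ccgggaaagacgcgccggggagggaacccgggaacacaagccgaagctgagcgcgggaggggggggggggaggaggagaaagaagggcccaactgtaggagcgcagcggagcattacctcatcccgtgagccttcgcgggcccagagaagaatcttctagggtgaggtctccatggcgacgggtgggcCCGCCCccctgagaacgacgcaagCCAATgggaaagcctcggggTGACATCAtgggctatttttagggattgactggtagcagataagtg
Junb gap: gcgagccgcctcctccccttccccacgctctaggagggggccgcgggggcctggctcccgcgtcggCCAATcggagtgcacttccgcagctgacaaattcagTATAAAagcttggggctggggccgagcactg
Atf3 gap: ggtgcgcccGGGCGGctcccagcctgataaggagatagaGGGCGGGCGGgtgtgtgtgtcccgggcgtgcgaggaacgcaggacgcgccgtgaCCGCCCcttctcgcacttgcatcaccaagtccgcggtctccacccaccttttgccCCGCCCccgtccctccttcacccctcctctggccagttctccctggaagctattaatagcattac
The gap of Jun held a GC box at -89, a CCAAT box at -65 and a TGACATCA at -45, counted from the TSS to the first base. TGACATCA is a variant of the cAMP response element to which Jun/ATF2 dimers bind, and it occurs in 3.62% of RefSeq promoters. The gap of Junb held a CCAAT box at -66 and a TATA box at -30. The gap of Atf3 held 5 GC boxes upstream of the TSS, and that of Fosl2 held 1. The CCAAT box occurs in 37.4% of RefSeq promoters.

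Downstream of the TSS the gap of Fosl2 also held a TPA response element, TGACTCA, which starts 53 bp after the TSS. It is shown with 10 bases on either side, at chr5:32135844-32135870 on the plus strand, because it is the only TGANTCA match in these gaps. TGANTCA occurs in 7.81% of RefSeq promoters and in none of the 7 AP-1 promoters of the RefSeq table.
Fosl2 site: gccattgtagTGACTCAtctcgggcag
The RefSeq start of Fosl2 lies 671 bp downstream of the GENCODE TSS used here, so its RefSeq promoter window does not include this site. A window of the same size at the GENCODE TSS would not include it either, since it would end 50 bases after the TSS. In the RefSeq windows, the GC box matched in 5 of the 7 genes, the CCAAT box in 3, the TATA box in 2 (Fos and Junb) and TGACATCA in 1 (Jun). The RefSeq start of Junb is at -30 relative to the TSS used here, so its TATAAA begins at the RefSeq start itself. The RefSeq start of Jund is at -1210 relative to the TSS used here. Its window lies outside the CpG island and held no match to any motif, so it does not describe the sequence at that TSS. TGACGTCA, the CArG box and GCGTGGGCG matched in 0 of 7, and they occur in 1.79%, 1.63% and 0.612% of all RefSeq promoters. The windows begin 250 bases before the start, so elements farther upstream lie outside them and are not counted.

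The downstream extension carried H3K4me3 far into these genes. Measured from the TSS of the principal transcript, it had a median of 2377 bp over the 7 genes and of 1039 bp over coding genes with a TSS peak. Upstream, the medians were 871 and 508 bp. Most AP-1 genes are short, and the peaks covered a median of 30.9% of the gene body, compared with 4.14% over coding genes with a TSS peak. Coding genes no longer than Fosl1 (8400 bp) had a median of 24.6%.

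To take gene length into account, coding genes with a TSS peak were divided into 20 bins of gene length. In 6 of the 7 AP-1 genes the covered share was above the upper quartile of the bin. Jun (90.1%) and Junb (70.3%) were compared with an upper quartile of 41.7%, and Fos (38.5%) lay below the same value. Fosl2, with 18.3%, exceeded an upper quartile of 7.32% in spite of its length of 22042 bp. Atf3 had 4.97% against 3.44%.

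**Figure D2:**
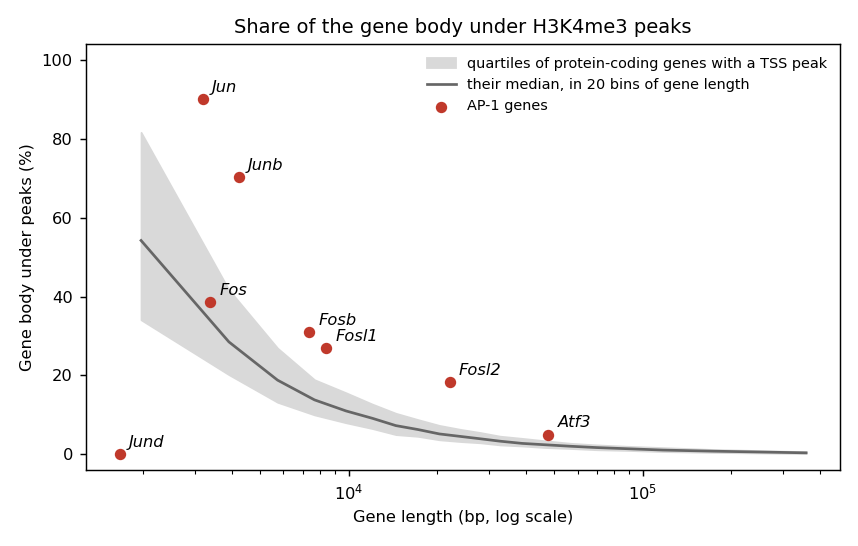
Share of the gene body under H3K4me3 peaks in percent (vertical) against gene length in bp on a log scale (horizontal). The line and band are the median and quartiles of protein-coding genes with a TSS peak in 20 bins of length, and red points are the 8 AP-1 genes, of which Jun is highest at 90.1% and Jund lies at 0%.

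All 8 of 8 AP-1 genes had a CpG island within 1 kb of a TSS, against 59.0% of coding genes, and in each of the 8 the island contained the TSS. An island was also common among marked genes, present in 11579 of the 12947 coding genes with a TSS peak. These CpG-rich stretches are known to recruit KMT2 complexes. The islands were between 1314 bp (Fos) and 2849 bp (Jun) wide. H3K4me3 peaks covered all of the islands of Fos and Fosl1, 94.1% of that of Junb, 89.8% of Fosb, 89.5% of Jun and 87.7% of Fosl2. Atf3 had a long island of 2768 bp, of which 50.6% lay under peaks, and Jund had 0%. Under a stricter definition, which asks for longer islands richer in GC and CpG, Fosb no longer had one.

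Putative enhancers were present within 100 kb of each of the 8 genes, but their number differed widely. Such a region was found for 75.5% of coding genes. The median number was 7 for the AP-1 genes and 3 for all coding genes. Fosl2 had 21 enhancers (99.4 percentile), while Fos, Fosb and Jun had 9 each. Atf3 had 5, Jund 4, Fosl1 2 and Junb 1. An enhancer was not assigned to a target gene. Of the 60 enhancers, 26 had the AP-1 gene as the nearest coding TSS, and none was counted for more than 1 gene.

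**Figure D3:**
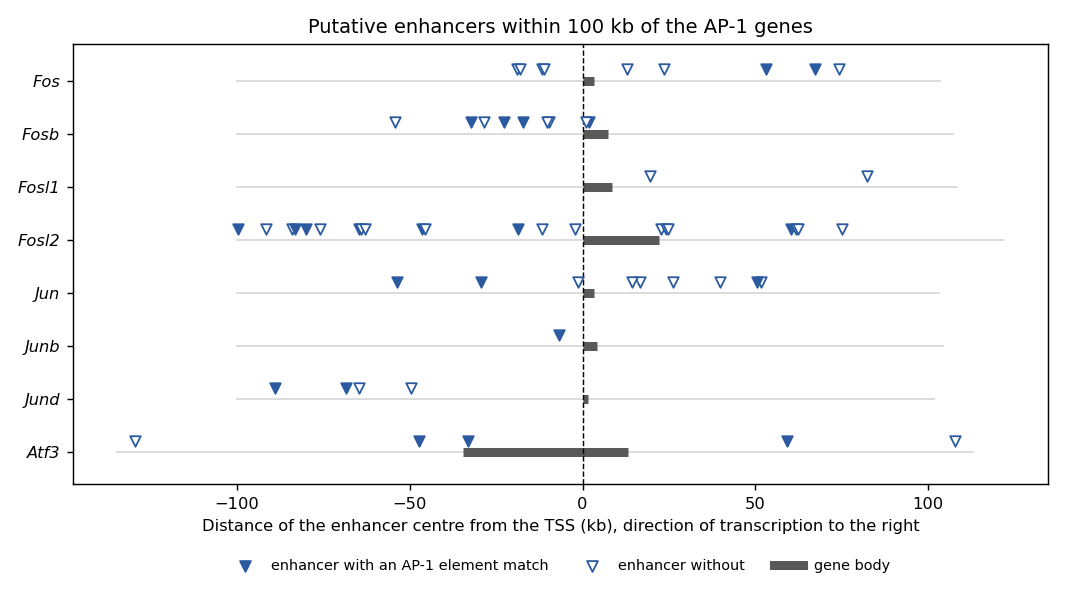
Putative enhancers of control cells within 100 kb of the 8 AP-1 genes, by the distance of the enhancer centre from the TSS in kb, with transcription to the right. Filled triangles contain TGANTCA, open ones do not, thick grey lines are gene bodies and thin lines the window searched; Fosl2 has 21 enhancers and Junb 1.

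The enhancers around Fos lay in an isolated neighbourhood, with the TSS of 1 other coding gene, Tmed10, within 100 kb. Between 8.86 and 70.4 kb from the gene, 4 were upstream and 5 downstream, and Fos was the nearest coding TSS for 7 of the 9. Jun likewise had 1 coding neighbour, Mysm1, and was nearest for 6 of 9. The nearest enhancer of Jun, 144 bp wide, lay 1.28 kb upstream and overlapped a peak. Of the 21 enhancers around Fosl2, 14 lay upstream, most of them in or near Babam2, and Fosl2 was the nearest coding TSS for 6. The closest of these began 0.316 kb beyond the end of Fosl2.

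Atf3 had 2 other coding genes with a TSS within 100 kb, as Fosl2 did, and was the nearest coding TSS for 2 of its 5 enhancers. Fosb, Fosl1, Junb and Jund lay in denser surroundings. Fosb had 11 other coding genes with a TSS within 100 kb, and its 9 enhancers were either in the gene (2) or upstream (7). Of these 9, 7 overlapped an H3K4me3 peak. Fosl1, Junb and Jund, with 15, 17 and 12 coding neighbours, were the nearest coding TSS of none of their enhancers. The 4 enhancers of Jund all lay 49.4 to 87.0 kb upstream, outside the peak-free stretch. The farthest of them, at the TSS of Ssbp4, measured 3905 bp and was the widest of all 32965 enhancers. Coding genes with at most 2 coding neighbours had a median of 3 enhancers and those with at least 11 had a median of 2.

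Of the 60 enhancers, 18 (30.0%) overlapped an H3K4me3 peak. Among all enhancers the share was 7.52%, and it was 8.63% among enhancers within 100 kb of any coding gene with a TSS peak. Of the 18, 7 were those of Fosb and 3 those of Fos, and the enhancers near a gene share its surroundings. By the position of their centres, 29 enhancers were intronic, 5 exonic and 26 outside genes. A coding TSS of GENCODE lay within 1 kb of 6 of the 60, although the authors removed regions around TSSs, and their TSS set was not compared with GENCODE. The median width was 558.5 bp near the AP-1 genes and 405 bp over all enhancers.

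The AP-1 element, in its wider form TGANTCA, was found in 22 of the 60 enhancers, or 36.7% (Wilson 95% interval 25.6 to 49.3%). Over all enhancers the share was 30.2% (29.7 to 30.7%), which lies within this interval. The enhancers near the AP-1 genes were wider, and per kb of sequence they had 0.699 matches, slightly fewer than the 0.756 of all enhancers. Both densities were above that of TSS peaks of coding genes (0.170 per kb) and of the whole chromosomes (0.318 per kb). The intervals cover counting error over regions, and enhancers of 1 gene are not independent of each other. By gene, a match was present in 7 of 21 enhancers of Fosl2, 4 of 9 of Fosb, 3 of 9 of Jun, 3 of 5 of Atf3, 2 of 9 of Fos, 2 of 4 of Jund, the 1 of Junb and 0 of 2 of Fosl1. TGACATCA and the GC box were more frequent here than in all enhancers. The former was found in 7 of 60 (11.7%, interval 5.77 to 22.2%) against 3.49%, and the latter in 18 of 60 (30.0%, interval 19.9 to 42.5%) against 11.4%. Per kb they had 0.169 against 0.0695 and 0.915 against 0.363 matches. The GC box occurs in 70.6% of TSS peaks of coding genes. Of the other motifs, TATAAA (13.3% against 19.5%) and GCGTGGGCG (0% against 0.182%) were less frequent here. CCAAT (46.7% against 43.3%), the CArG box (2 of 60, 3.33% against 3.23%) and TGACGTCA (1 of 60, 1.67% against 0.619%) had higher shares.

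The enhancer of Junb had the most matches. It lay at chr8:84984957-84986323, 6.24 kb upstream of Junb and 4280 bp from Hook2, which was the nearest coding TSS, and contained TGAGTCA 4 times in 1367 bp. Of all enhancers, 82 (0.249%) had at least 4 matches. The stretches below are shown as examples of the element outside promoters, and were chosen after their values were seen. For Junb it is the stretch with 3 of the 4 matches, chr8:84985637-84985777. For Fos, Fosl2 and Jun it is a match in the closest enhancer that has one, with up to 70 bases on either side, at chr12:85527128-85527220 (49.3 kb downstream of Fos), chr5:32117148-32117294 (18.4 kb upstream of Fosl2) and chr4:95081783-95081929 (29.2 kb upstream of Jun, in an intron of Junos). All are given on the plus strand of GRCm38.p6, and capitals mark TGANTCA.
Junb enhancer: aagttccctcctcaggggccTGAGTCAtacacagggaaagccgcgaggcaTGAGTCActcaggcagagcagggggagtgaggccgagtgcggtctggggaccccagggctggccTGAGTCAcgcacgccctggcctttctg
Fos enhancer: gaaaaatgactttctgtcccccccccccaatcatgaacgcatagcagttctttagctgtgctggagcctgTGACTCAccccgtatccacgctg
Fosl2 enhancer: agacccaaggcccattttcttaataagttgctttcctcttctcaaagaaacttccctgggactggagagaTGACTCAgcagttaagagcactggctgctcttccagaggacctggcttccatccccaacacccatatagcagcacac
Jun enhancer: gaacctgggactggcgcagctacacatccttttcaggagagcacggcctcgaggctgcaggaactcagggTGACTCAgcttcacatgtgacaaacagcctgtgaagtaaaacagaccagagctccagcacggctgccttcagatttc
The central base was C or G in these matches, and TGACTCA and TGAGTCA are the same site read on opposite strands. Some other enhancers counted above, near Fosb, Fosl2 and Jund, held TGAATCA or TGATTCA, which have A or T at the centre. These are outside the TPA response element itself, and in some of these enhancers they were the only match.

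To set the AP-1 genes beside related genes, the same values were taken for 4 further lists. Other immediate early genes had a TSS peak in 14 of 15 cases, with a median widest peak of 2474.5 bp, close to the 2525 bp of the AP-1 genes. The widest were at Myc (4380 bp), Ccn1 (4045 bp) and Egr1 (3380 bp), and the narrowest at Ier3 (1482 bp), Mcl1 (1415 bp) and Nr4a1 (1367 bp). Egr2, a zinc finger factor, had none. The median number of enhancers within 100 kb was 8 for this list, compared with 7 for the AP-1 genes.

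Other AP-1 and related bZIP genes had a TSS peak in 19 of 20 cases, with a median of 1970 bp. Maf (4381 bp), Nfe2l1 (4085 bp) and Jdp2 (3823 bp) were widest. Jdp2, a repressor that dimerises with Jun proteins, was the nearest coding TSS of the 2 farthest enhancers downstream of Fos. Creb1 (1040 bp), Atf2 (1007 bp) and Atf6 (963 bp) were narrowest. Batf, which is mainly known from lymphocytes, had no TSS peak.

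The kinases and factors that act on AP-1 genes had one in 16 of 16 cases, at a lower median of 1530.5 bp. Mef2d (3294 bp), Map3k1 (2824 bp) and Srf (2810 bp) were widest, and Map2k4 (1036 bp), Elk1 (785 bp) and Mapk8 (775 bp), which encodes the Jun kinase JNK1, were narrowest. Known AP-1 targets of fibroblasts had a TSS peak in 10 of 16 cases, a share close to the 59.1% of all coding genes, and their median widest peak was 1926.5 bp. The 6 without one were the matrix metalloproteinase genes Mmp3, Mmp9, Mmp10 and Mmp13, the cytokine gene Il6 and Dcn, which encodes decorin. Among the 10 targets with a peak, Ccnd1 (2783 bp), Vim (2598 bp) and Plaur (2379 bp) were widest, and Timp1 (536 bp), Spp1 (484 bp) and Ccl2 (212 bp) narrowest.

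**Figure D4:**
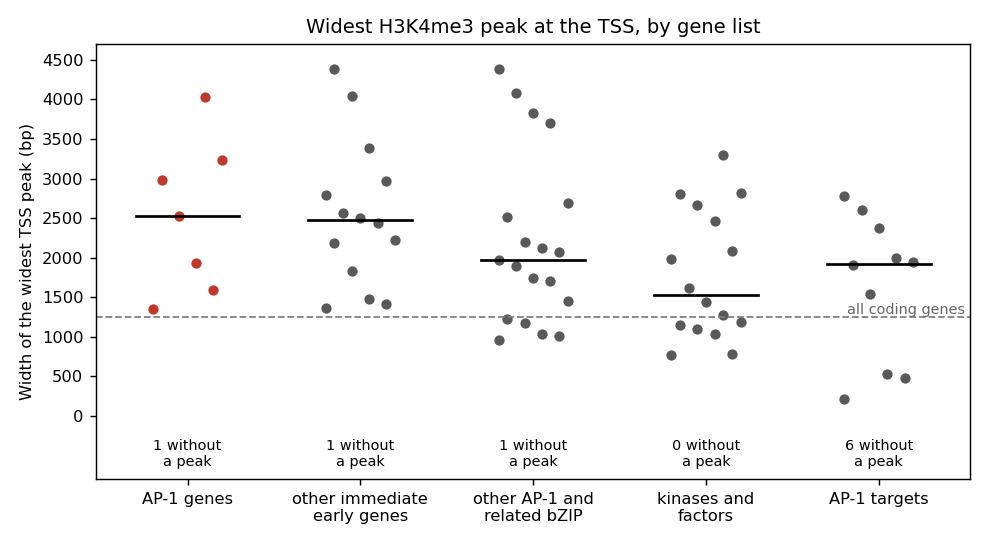
Width of the widest TSS peak in bp (vertical) for the AP-1 genes (red) and 4 further gene lists (grey), with 1 point per gene and the list median as a bar. The dashed line is the median of all protein-coding genes with a TSS peak, 1255 bp; the number of genes without a TSS peak is given below each list, and is highest, 6, among the AP-1 targets.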

How the data were processed

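ChIP-seq of H3K4me3 was performed by the authors in iMEF cells, untreated or treated with dTAG. The authors used Trim Galore for trimming, BWA for alignment to mm10 (GRCm38.p6), samtools for filtering, Picard to merge replicates and MACS to call narrow peaks (versions not given in the sources used here). The lists used here are positions only, with no signal, score, fold or p-value and 0 columns of values per sample. The paper also names a list of H3K4me3 sites that changed significantly against untreated cells, by time point. That list was not analysed here. Peak starts were read as counting from 0 and enhancer starts from 1. Genes and TSSs were taken from GENCODE release M21, and the principal transcript by APPRIS, CCDS, the basic set and length. Chromosomes 1 to 19, X and Y were used, with 25357 of 25431 peaks and all 32965 enhancers. CpG islands were called from the masked reference (17 per CpG, -1 per other base, over 200 bp, GC content over 50%, ratio over 0.6). Promoter sequences were from the RefSeq table of GRCm38.p6, in which 7 of the 8 genes matched and Fosl1 was missing.

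The gene members, lists and motifs were chosen with earlier results of these data known, and no test was applied to them. The place of the TSS between peaks and the peak-free stretches were examined after the peaks had been seen. From each list, the genes without a TSS peak and the 3 widest and 3 narrowest were named. Percentiles are over coding genes with a TSS peak, or over all coding genes for enhancers. The interval, motif and island functions were tested on simulated regions, and recovered every answer in 5 of 5 kinds of check. Python 3.11.15, NumPy 2.4.6, pandas 2.3.3, SciPy 1.17.1, Numba 0.67.0 and Matplotlib 3.10.9 were used.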

Additional observations from a re-analysis of the deposited data

How the results depend on the processing

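Other TSS sets, windows, peak and enhancer rules were tried, 34 alternatives in all. A TSS peak was found for the same 7 genes, all but Jund, under each of the 6 alternatives tried for it. The median width of the widest TSS peak was 3233 bp with peaks merged within 1 kb, 1596 bp when the peak centre had to lie in the window (the widest peaks of Fosl2 and Jun have their centre outside it) and 2526 bp with starts counted from 1. The median downstream extension was 2546 bp from the outermost TSS, and the median share of the gene body was 32.3% with merged peaks. The median number of enhancers was 5 within 50 kb, 10 within 200 kb, 6.5 by distance to the TSS and 4.5 without enhancers near a TSS. The share of enhancers with TGANTCA was 16.7% in their central 200 bases (14.7% over all enhancers) and 29.7% within 200 kb, below the 30.2% of all enhancers. Of 20 medians and shares recomputed, 19 were above the value over all coding genes or enhancers. They reuse the same genes and lists, several gave the unchanged value, and they are not independent of each other. Chosen after seeing the data, gaps of up to 300 or 1000 bp gave the same 4 genes with the TSS in a gap. With peaks of at least 500 bp Junb was no longer among them, and from the outermost TSS Atf3 was not. With peaks merged within 1 kb, 0 of the 7 genes had 2 TSS peaks, against 6.55% of coding genes. No paired analysis was possible because neither list has values for single libraries, and leaving out replicates was not run for the same reason. Peak widths depend on depth, which these lists do not show, and the union does not show how a peak differed between treated and untreated cells.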

Other observations

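Of the 8 peak-free stretches with at least 7 genes that have a CpG island, a stretch at chr11:96124932-96363506 held the Hoxb genes from Hoxb2 to Hoxb13, with 7 island genes and 0 enhancers. The stretch of Jund held 7 island genes and was the shortest of the 8, at 182.7 kb.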
